A study of Mus musculus with 21 samples.

Results

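Co-inhibitory receptors and their ligands are the brakes of T cell activation. A receptor on the T cell binds a ligand on a neighbouring cell and recruits phosphatases or other inhibitors to the signalling complex, so that antigen receptor and costimulatory signals weaken. The same receptors appear on T cells after activation, persist on T cells that are stimulated for long, and are carried by regulatory T cells, while the ligands are best known on antigen-presenting cells but are made by activated T cells as well. Of 10 genes chosen by symbol, 9 had a transcript cluster of their own on the array and are described among 14860 genes tested: the receptor genes Havcr2 (TIM-3), Lag3, Pdcd1 (PD-1), Btla, Cd160 and Cd244a (2B4), and the ligand genes Cd274 (PD-L1), Pdcd1lg2 (PD-L2) and Cd200. Tigit had none in the annotation used and was not analysed here.

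The cells came from spleen cultures of Marilyn mice, which carry a transgenic T cell receptor for the male antigen HY. Marilyn.Foxp3hCD2 reporter mice report Foxp3, the transcription factor of regulatory T cells, through human CD2 (hCD2) on the cell surface, and Marilyn.Foxp3-/- mice lack a working Foxp3 gene. All groups were activated. The 3 reporter groups had 5 arrays each: untreated cells labelled CD4+CD2, TGFB-treated cells sorted as CD4+hCD2+, and TGFB-treated cells sorted as CD4+hCD2-. The 2 knockout groups, untreated and TGFB-treated, had 3 arrays each and are also labelled CD4+CD2, a label that does not say which CD2 is meant. The labels state no age, TGFB dose or culture time. They call the samples biological replicates and name neither animals nor cultures, so each p-value reflects a spread between arrays. For each gene that spread was estimated over all groups together, also those outside the comparison. RNA was hybridised to exon arrays. The values are log2 levels from the robust multi-array average (RMA), on which a difference of 1 is a 2-fold change.

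The sort was reflected in the cluster shared by Foxp3 and the neighbouring RNA gene Flicr, which lay between 9.23 and 11.68 in hCD2+ cells, between 6.35 and 7.08 in hCD2- cells and between 5.95 and 6.54 in untreated reporter cells. In knockout cells it lay between 6.80 and 7.17 without TGFB and between 8.26 and 8.90 with it, and where its probes lie relative to the disruption was not tested. CD4 T cell markers (6 of 7 measured) averaged between 9.88 and 11.5 on every array. Of the other cell types, B cell markers (6 measured) averaged between 5.33 and 6.29, dendritic cell and macrophage markers (7) between 5.15 and 6.13, granulocyte markers (4) between 5.08 and 6.04 and erythroid markers (2) between 4.24 and 5.48. Of these markers, Ms4a1, Adgre1, Clec9a, S100a8 and Klf1 lay under the lower quartile of the array on every array. Others lay higher: group means were 7.58 to 8.47 for Cd68, 6.25 to 7.77 for Cd79b and 6.26 to 7.41 for Elane. Pax5, Blnk, Flt3, Fcgr1 and Mpo were under the lower quartile on 0 arrays. Whether other cell types were present was not tested. Array medians were 6.05 to 6.48 in reporter and 6.83 to 7.08 in knockout cells. The genotypes may therefore have been normalized separately, and levels are compared across them only by the rank of a gene within its array. Among reporter arrays, 4 stood apart by an interquartile range under 2.5: hCD2- replicates 1, 3 and 4 and hCD2+ replicate 3. Untreated knockout replicates 1 and 2 (2.41 and 2.38) and TGFB-treated knockout replicate 1 (2.33) were also under 2.5. The fit without narrow arrays, given below, left out only the 4 reporter arrays. Arrays give no read depth, and their number limits the precision.

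TGFB-treated cells had less Havcr2 and less Pdcd1lg2 than untreated cells in both sorted fractions, and knockout cells given TGFB had less Havcr2 as well. Cd160 went the other way: it rose 1.85-fold in hCD2- cells and 3.61-fold in knockout cells given TGFB, while the difference in hCD2+ cells was 0.01 on the log2 scale. Lag3, Pdcd1, Btla, Cd244a, Cd274 and Cd200 passed the test in no comparison on the deposited values of all arrays. Lag3 and Pdcd1 passed it after other scalings, and Cd274 when 1 array was left out, as given below.

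**Figure D1:**
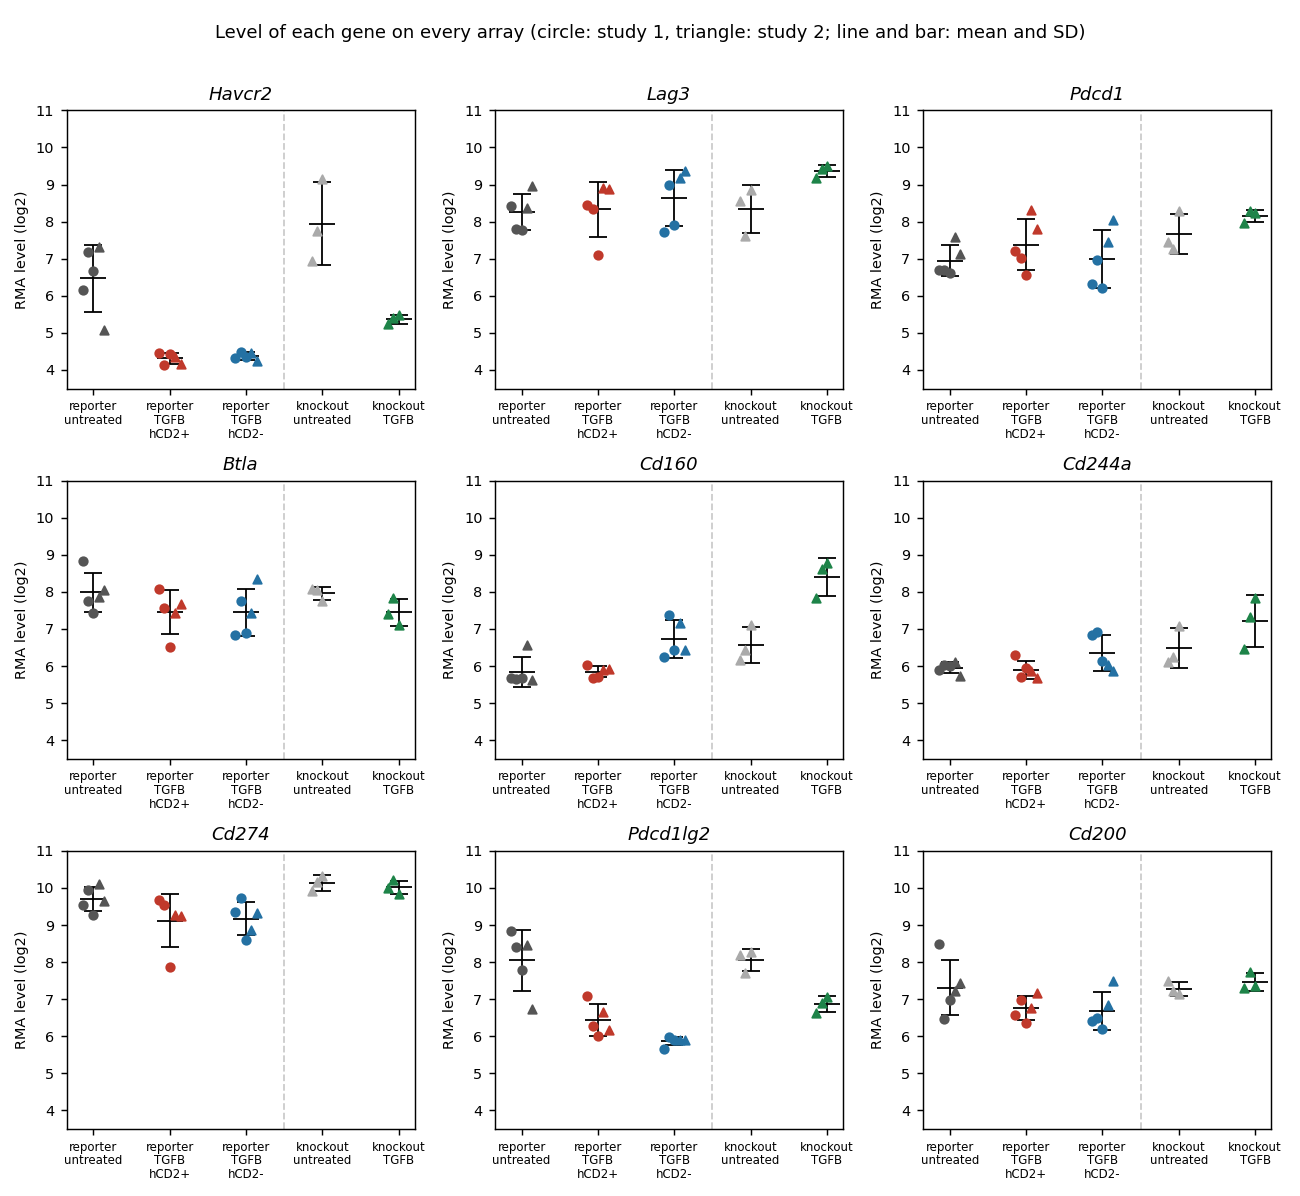
RMA level (log2, vertical axis) of the 9 genes on all 21 arrays, by group; circles are study 1, triangles study 2, and the line and bar give the mean and SD. The dashed line separates the genotypes, whose levels may not share a scale. Havcr2 lies between 4.14 and 4.49 on all TGFB-treated reporter arrays against 5.09 to 7.31 without TGFB, and within knockout cells Cd160 lies at 7.83 to 8.79 with TGFB against 6.16 to 7.10 without.

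Havcr2 encodes TIM-3, a receptor of terminally differentiated Th1 cells that binds galectin-9 among other ligands. In untreated reporter cells its level was 6.15, 7.19, 6.66, 7.31 and 5.09 in replicates 1 to 5. In hCD2+ cells it was 4.47, 4.14, 4.44, 4.36 and 4.16. In hCD2- cells it was 4.32, 4.49, 4.34, 4.46 and 4.24. Every TGFB-treated array lay below every untreated array, and untreated replicate 5 was the lowest of its group. All 10 values of the sorted cells lay under the lower quartile of their array, so that the size of the fall is uncertain. The fitted log2 fold change was -2.17 ± 0.36 in hCD2+ cells (SE, limma adjusted p = 0.00063, 4.49-fold lower) and -2.11 ± 0.36 in hCD2- cells (adjusted p = 0.000533, 4.32-fold lower). The fractions differed by -0.06 (95% interval -0.82 to 0.71, limma adjusted p = 1). This interval rests on the spread shared by all groups. The SD was 0.16 in hCD2+ and 0.10 in hCD2- cells but 0.90 in untreated reporter cells, so the interval does not measure the spread within the fractions. Since the samples are bulk populations, fewer cells with the transcript and less transcript per cell cannot be told apart, here and below.

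In knockout cells Havcr2 stood at 6.94, 7.75 and 9.15 without TGFB and at 5.23, 5.41 and 5.47 with it. The groups did not overlap, and the TGFB arrays again lay under the lower quartile. The fitted fall was 5.97-fold (log2 -2.58 ± 0.47, limma adjusted p = 0.00397). Since the TGFB-treated arrays of both genotypes lay so low, the direction of these falls was measured, their true size is uncertain, and no difference in size between the genotypes was read from them. Within its array the gene sat at the 48.0th percentile of genes on average in untreated reporter cells and at the 64.8th in untreated knockout cells, and at the 10.7th, 10.9th and 14.4th in hCD2+, hCD2- and TGFB-treated knockout cells. Ranked this way, Havcr2 was near the bottom of the array in each TGFB-treated group.

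Within study 1 the log2 fold change of Havcr2 was -2.32 in hCD2+ cells (limma adjusted p = 0.00356) and -2.28 in hCD2- cells (0.0027). Within study 2, with 2 arrays a group, it was -1.94 (0.274) and -1.85 (0.222), and in knockout cells, all of study 2, the call was lost when that study was fitted alone (-2.58, adjusted p = 0.055). The direction was the same in both studies, and the test passed in study 1. Without the 4 narrow arrays the values were -2.17 in hCD2+ (limma adjusted p = 0.0045) and -2.09 in hCD2- cells (0.0294). Over the 15 reporter arrays the genes with the most similar pattern were Aqp9 (Pearson r = 0.98), F2rl2 (0.97) and Clcn5 (0.96), correlations that hold the difference between the groups and the studies.

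Pdcd1lg2 encodes PD-L2, the second ligand of PD-1, and Cd274 encodes PD-L1, the first. Untreated reporter cells had Pdcd1lg2 levels of 8.84, 8.41, 7.80, 8.47 and 6.73. The hCD2+ cells had 7.09, 6.29, 6.02, 6.66 and 6.18, and the hCD2- cells 5.67, 5.97, 5.89, 5.90 and 5.91. All hCD2- arrays lay below all untreated arrays and also below all hCD2+ arrays, whereas hCD2+ replicate 1 overlapped with untreated replicate 5. Pdcd1lg2 fell 3.04-fold in hCD2+ cells (log2 -1.60 ± 0.29, limma adjusted p = 0.00112) and 4.54-fold in hCD2- cells (log2 -2.18 ± 0.29, limma adjusted p = 3.95e-05). Between the fractions it was 0.58 higher in hCD2+ cells, a difference that missed the threshold (95% interval -0.03 to 1.19, adjusted p = 1). The spread behind this interval is again that of all groups, with an SD of 0.43 in hCD2+, 0.11 in hCD2- and 0.83 in untreated reporter cells. Study 1 gave -1.88 (limma adjusted p = 0.0279) and -2.51 (0.00518), and study 2 gave -1.18 (0.288) and -1.70 (0.0809), for hCD2+ and hCD2- cells. Without the 4 narrow arrays the fall was -1.45 (adjusted p = 0.00803) in hCD2+ and -2.07 (0.0051) in hCD2- cells, so both calls held.

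In knockout cells Pdcd1lg2 measured 8.18, 7.72 and 8.27 without TGFB and 6.63, 6.91 and 7.07 with it, so that the groups did not overlap. The log2 fold change of -1.19 ± 0.37 missed the threshold (limma adjusted p = 0.117). It passed after quantile normalization (-1.19, adjusted p = 0.0207) and without untreated reporter replicate 5, an array that enters this comparison only through the shared spread (-1.19, adjusted p = 0.0172). The change in hCD2- cells differed from that in knockout cells by -0.995 (95% interval -1.98 to -0.01, adjusted p = 0.902), and for hCD2+ cells the difference was -0.42 (-1.40 to 0.57, adjusted p = 0.998). Mean ranks were the 74.7th percentile in untreated reporter and the 69.3rd in untreated knockout cells, against the 50.2nd, 38.6th and 44.6th in hCD2+, hCD2- and TGFB-treated knockout cells. Nearest in pattern over the 15 reporter arrays were Rai14 (r = 0.96), Psat1 (0.96), an enzyme gene of serine synthesis, and Pde1a (0.95).

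Cd274 passed the test in no comparison on all arrays. Its level was 9.28 to 10.11 in untreated reporter cells (median 9.66), 7.87 to 9.68 in hCD2+ cells (median 9.27) and 8.60 to 9.74 in hCD2- cells (median 9.32), with overlap among all 3 groups. The log2 differences from untreated cells were -0.59 (95% interval -1.18 to 0.00, limma adjusted p = 0.196) and -0.54 (-1.13 to 0.05, adjusted p = 0.189). The lowest value, 7.87, belonged to hCD2+ replicate 3, the array with the narrowest range of all, and without that array the hCD2+ difference was -0.27 (adjusted p = 0.537). The same omission brought the hCD2- difference past the threshold, at an unchanged -0.54 (adjusted p = 0.0497). In knockout cells Cd274 lay at 9.91, 10.15 and 10.33 without and 9.99, 10.21 and 9.85 with TGFB (log2 -0.11, 95% interval -0.88 to 0.65, adjusted p = 0.99). It ranked between the 91.4th and the 97.4th percentile of genes on every array.

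Cd160 encodes a small receptor of NK cells and T cells that shares the ligand HVEM (Tnfrsf14) with BTLA. In untreated reporter cells it measured 5.67, 5.66, 5.67, 6.58 and 5.62. The hCD2+ cells gave 6.04, 5.68, 5.70, 5.89 and 5.92, and the hCD2- cells 6.25, 7.38, 6.43, 7.15 and 6.44. All hCD2- arrays lay above all hCD2+ arrays, and apart from untreated replicate 4 also above the untreated ones. The rise in hCD2- cells was 0.89 ± 0.25 on the log2 scale (limma adjusted p = 0.0175, 1.85-fold). In hCD2+ cells the difference from untreated cells was 0.01 (95% interval -0.51 to 0.53, adjusted p = 0.992). The hCD2- rise was lost without hCD2- replicate 4 (0.81, adjusted p = 0.0586) and without the 4 narrow arrays (1.07, adjusted p = 0.0783). It was 1.02 within study 1 (adjusted p = 0.0881) and 0.70 within study 2 (0.423).

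Set directly against each other, hCD2+ cells had 0.88 less Cd160 than hCD2- cells on the log2 scale (95% interval -1.40 to -0.36), which missed the threshold on the deposited values (limma adjusted p = 0.339, unadjusted p = 0.00222) and passed it after quantile normalization (-0.96, adjusted p = 0.0238). The difference between the fractions was -0.88 within study 1 and -0.89 within study 2 (adjusted p = 1 in each).

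Cd160 also rose in knockout cells. Levels were 6.16, 6.42 and 7.10 without TGFB and 7.83, 8.61 and 8.79 with it, with no overlap. Cd160 rose 3.61-fold (log2 1.85 ± 0.32, limma adjusted p = 0.00256), and it was past the threshold in each fit that left out 1 array (1.65 to 2.14). Compared with this response, that of hCD2+ cells was lower by 1.84 on the log2 scale (difference -1.84 ± 0.40, 95% interval -2.69 to -0.99, unadjusted p = 0.000247, limma adjusted p = 0.367), and quantile normalization brought the difference past the threshold (-1.97, adjusted p = 0.0239). For hCD2- cells the difference from the knockout response was -0.96 (-1.81 to -0.11, adjusted p = 0.902). In rank within the array, Cd160 averaged the 36.1st percentile in untreated reporter, the 37.4th in hCD2+, the 57.9th in hCD2-, the 35.4th in untreated knockout and the 78.2nd in TGFB-treated knockout cells.

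**Figure D2:**
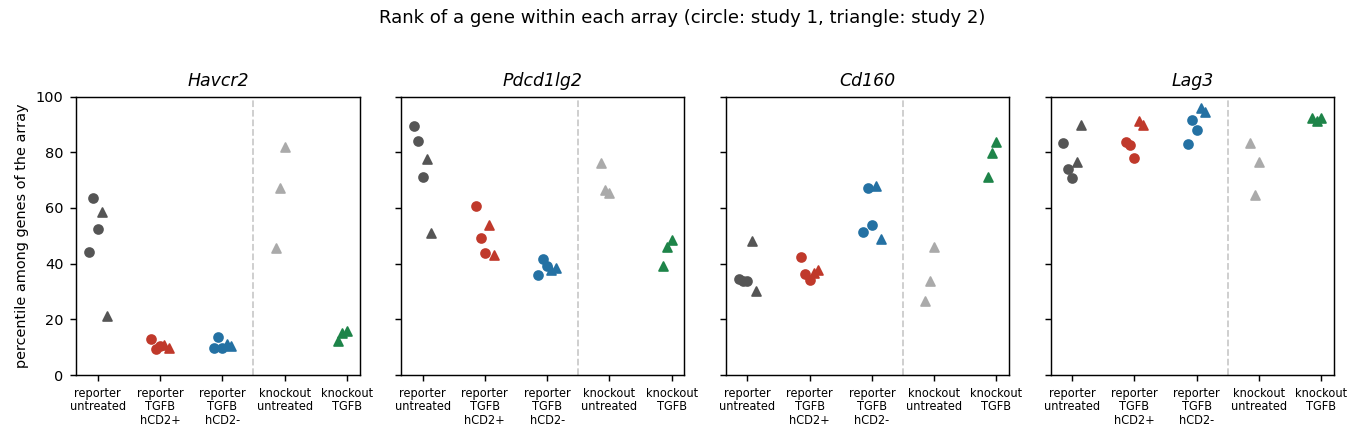
Percentile of 4 genes among all genes of the same array (vertical axis), a measure that does not need a common scale between genotypes; each point is an array, circles study 1 and triangles study 2. Havcr2 averages the 10.7th to 14.4th percentile in the TGFB-treated groups, and Cd160 the 78.2nd in TGFB-treated knockout cells against the 37.4th in hCD2+ cells.

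CD8 and NK markers are given beside Cd160, since CD8 T cells and NK cells carry this receptor. Of 2 CD8 markers, Cd8a rose in hCD2- cells (log2 2.44, limma adjusted p = 6.82e-06) and in knockout cells (2.47, adjusted p = 0.000386), and Cd8b1, the gene of the other CD8 chain, fell in hCD2- cells (-0.74, adjusted p = 0.0152) and differed by -0.20 in knockout cells (adjusted p = 0.952). In hCD2+ cells Cd8a differed by 0.69 (adjusted p = 0.117) and Cd8b1 fell (-0.95, adjusted p = 0.00416). This Cd8a difference passed the threshold after quantile normalization (0.84, adjusted p = 0.0207), after median centring (0.81, adjusted p = 0.0318) and with a replicate block (0.69, adjusted p = 0.0479). Cd8a was lower in hCD2+ than in hCD2- cells (-1.76, adjusted p = 0.00583), as Cd160 was on all arrays, and Cd8b1 differed by -0.21 between them (adjusted p = 1). The Cd8a call between the fractions was lost without the study term (adjusted p = 0.0579) and without the narrow arrays (0.177), as was that of Cd8b1 in hCD2- cells after quantile normalization (-0.32, adjusted p = 0.0728). Averaged over both CD8 genes, the level lay between 7.54 and 8.29 in untreated reporter, 7.51 and 8.31 in hCD2+, 8.23 and 9.71 in hCD2-, 8.25 and 8.75 in untreated knockout and 9.22 and 9.79 in TGFB-treated knockout cells. This mean joins genes at unlike levels. In the same order, group means were 6.33, 7.01, 8.77, 6.84 and 9.31 for Cd8a and 9.73, 8.78, 8.99, 10.06 and 9.86 for Cd8b1. Cd8a was also among the 3 genes most like Cd160 over the 15 reporter arrays (r = 0.77), after Lypd6b and Prrt1 (0.79 each). Of 5 NK markers 2 were measured, and their mean level lay between 5.07 and 6.0, 5.04 and 5.39, 4.83 and 5.16, 6.12 and 6.49, and 5.70 and 5.83 in the same 5 groups. Ncr1, 1 of these 2 markers, was under the lower quartile on all 21 arrays. Eomes, the other one measured, fell in hCD2+ (-0.67, adjusted p = 0.0412), hCD2- (-0.97, adjusted p = 0.00284) and knockout cells (-1.02, adjusted p = 0.044). The hCD2+ call was lost without the study term (adjusted p = 0.0854), after median centring (0.0533) and without the narrow arrays (0.104). The hCD2- call was lost without the narrow arrays (0.0932) and the knockout call without the study term (0.104). Each Eomes call was also lost when a study was fitted alone. All groups are labelled CD4+, and the purity of the cells is not in the labels. The part of other cell types in the change of Cd160 was not tested.

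The 250 bases before the annotated start are printed for the 3 genes that passed the test. They run 5′ to 3′ on the strand of the gene (RefSeq, build GRCm38.p6). Capitals mark matches on either strand to AP-1 (TGANTCA), NFAT (GGAAA), SMAD (CAGAC), IRF (GAAANNGAA) or T-box (AGGTGTGA) letters. The windows are chr11:46454681-46454930 (+ strand) for Havcr2, chr19:29410669-29410918 (+) for Pdcd1lg2, and chr3:96829352-96829601 and chr3:96814522-96814771 (both -) for the 2 annotated starts of Cd160.
Havcr2: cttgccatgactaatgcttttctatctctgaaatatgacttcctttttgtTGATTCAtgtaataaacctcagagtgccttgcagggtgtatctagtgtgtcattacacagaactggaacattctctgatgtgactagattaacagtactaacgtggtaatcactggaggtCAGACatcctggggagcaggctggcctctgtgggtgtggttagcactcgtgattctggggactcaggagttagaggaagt
Pdcd1lg2: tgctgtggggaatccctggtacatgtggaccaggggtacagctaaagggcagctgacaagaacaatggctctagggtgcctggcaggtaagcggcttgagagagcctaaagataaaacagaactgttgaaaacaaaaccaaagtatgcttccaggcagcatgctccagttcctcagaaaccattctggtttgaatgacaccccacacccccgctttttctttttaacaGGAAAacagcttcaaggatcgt
Cd160 at its outer start: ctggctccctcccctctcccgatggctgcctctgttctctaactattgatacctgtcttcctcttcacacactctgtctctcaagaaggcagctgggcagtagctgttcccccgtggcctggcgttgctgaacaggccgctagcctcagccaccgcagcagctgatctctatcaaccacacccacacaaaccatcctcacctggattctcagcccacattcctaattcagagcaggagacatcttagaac
Cd160 at its inner start: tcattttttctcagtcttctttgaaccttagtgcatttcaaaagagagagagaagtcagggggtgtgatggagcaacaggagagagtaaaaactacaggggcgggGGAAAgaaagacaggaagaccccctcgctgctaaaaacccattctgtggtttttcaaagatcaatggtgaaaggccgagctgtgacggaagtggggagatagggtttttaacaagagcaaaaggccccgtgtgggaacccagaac
The Havcr2 window held 1 AP-1 and 1 SMAD match, the Pdcd1lg2 window 1 NFAT match, the inner Cd160 window 1 NFAT match and the outer Cd160 window none of these letters. Over 32851 promoter windows of the same length, 6.75% held the AP-1, 42.2% the SMAD, 55.6% the NFAT, 7.13% the IRF and 1.12% the T-box letters. Of the 9 genes, 8 had windows in the table (9 in all, and none for Lag3), of which 2 held AP-1, 4 SMAD, 5 NFAT, 2 IRF (those of Btla and Cd274) and 0 T-box letters. With 1 more A at the end of the IRF letters, 0 of the 9 windows and 2.98% of all windows matched. The matches describe letters and are not binding sites, and the factors themselves were not measured at these windows.

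Lag3 and Pdcd1 encode receptors that rise on activated T cells, LAG-3 binding MHC class II and PD-1 binding the ligands above. Lag3 measured 8.42, 7.79, 7.77, 8.38 and 8.95 in untreated reporter cells, 8.46, 8.35, 7.09, 8.90 and 8.88 in hCD2+ cells and 7.73, 8.99, 7.90, 9.19 and 9.36 in hCD2- cells. The groups overlapped. The lowest values in sorted cells, 7.09, 7.73 and 7.90, came from narrow arrays, while the narrow hCD2- replicate 4 gave 9.19. Log2 differences from untreated cells were 0.07 (95% interval -0.53 to 0.68, limma adjusted p = 0.898) in hCD2+ and 0.37 (-0.23 to 0.97, adjusted p = 0.381) in hCD2- cells. After quantile normalization the hCD2- difference was 0.79 (adjusted p = 0.00529), and without the 4 narrow arrays 0.86 (adjusted p = 0.0783).

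In knockout cells Lag3 stood at 8.57, 7.62 and 8.85 without TGFB and at 9.18, 9.43 and 9.50 with it, so the groups did not overlap. The log2 difference of 1.02 ± 0.37 missed the threshold on the deposited values (limma adjusted p = 0.207) and passed it after quantile normalization (1.15, adjusted p = 0.00414) and when the narrow reporter arrays were left out of the shared spread (1.02, adjusted p = 0.0384). It differed from the hCD2+ response by -0.95 (95% interval -1.93 to 0.03, hCD2+ minus knockout, adjusted p = 0.998) and from the hCD2- response by -0.65 (-1.63 to 0.33, adjusted p = 0.902).

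Pdcd1 lay at 6.71, 6.71, 6.62, 7.58 and 7.14 in untreated reporter cells, at 7.20, 7.02, 6.56, 8.32 and 7.79 in hCD2+ cells and at 6.31, 6.97, 6.20, 7.45 and 8.04 in hCD2- cells. The arrays of study 2, replicates 4 and 5, were the highest in each of these groups. The log2 difference was 0.43 ± 0.21 in hCD2+ cells (limma adjusted p = 0.213) and 0.04 ± 0.21 in hCD2- cells (adjusted p = 0.906). Scaling decided the first: it was 0.62 after quantile normalization (adjusted p = 0.00497) and 0.55 after centring each array on its median (adjusted p = 0.0422). Without TGFB knockout cells measured 7.46, 7.26 and 8.29, and with TGFB 7.97, 8.28 and 8.23 (log2 0.49 ± 0.27, adjusted p = 0.579, and 0.65 after quantile normalization, adjusted p = 0.0325).

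Btla, the receptor for HVEM, Cd244a, a receptor for CD48 that is best known from NK cells, and Cd200, the ligand of the myeloid receptor CD200R, did not pass the test in any comparison. Btla averaged 7.99 ± 0.53, 7.46 ± 0.58 and 7.45 ± 0.63 (SD, n = 5) in untreated, hCD2+ and hCD2- reporter cells, and 7.96 ± 0.18 and 7.45 ± 0.37 (SD, n = 3) in knockout cells without and with TGFB. Its log2 differences with TGFB were close in size in all 3 comparisons, at -0.53 (95% interval -1.18 to 0.12), -0.53 (-1.18 to 0.12) and -0.51 (-1.35 to 0.32). Without the narrow arrays the hCD2- difference changed sign (0.07, limma adjusted p = 0.968).

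Cd244a averaged 5.95 ± 0.14 in untreated, 5.90 ± 0.25 in hCD2+ and 6.36 ± 0.48 in hCD2- reporter cells (SD, n = 5), with hCD2- replicates 1 and 2 highest at 6.85 and 6.91. In knockout cells it measured 6.11, 6.25 and 7.09 without and 6.47, 7.33 and 7.84 with TGFB (log2 0.73, 95% interval 0.08 to 1.38, limma adjusted p = 0.337), and these ranges overlapped. Cd200 averaged 7.31 ± 0.75, 6.77 ± 0.32 and 6.68 ± 0.51 in the same reporter groups and 7.28 ± 0.19 and 7.47 ± 0.24 in knockout cells (SD, n = 3). Its log2 differences were -0.54 (-1.13 to 0.04, adjusted p = 0.231) in hCD2+, -0.63 (-1.21 to -0.04, adjusted p = 0.122) in hCD2- and 0.18 (-0.57 to 0.94, adjusted p = 0.99) in knockout cells. A single high value, 8.48 in untreated replicate 1, stood in the group against which the reporter differences were taken.

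**Figure D3:**
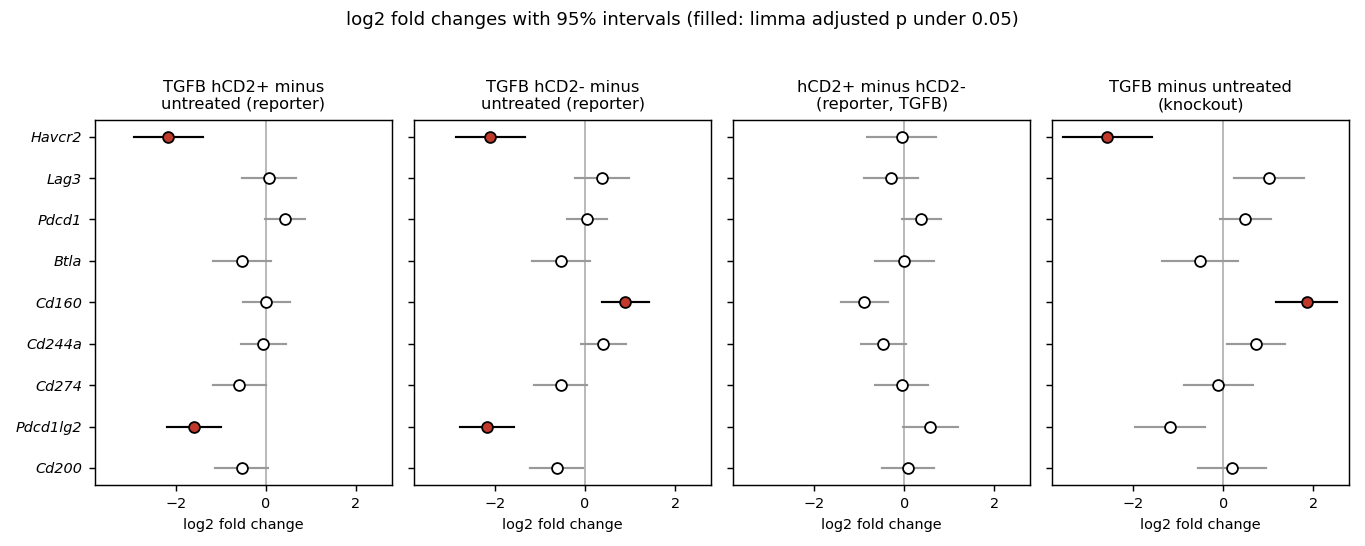
Log2 fold change (horizontal axis) of the 9 genes in the 4 comparisons of 2 groups, with 95% intervals; filled points passed the limma test at an adjusted p under 0.05 over 14860 genes. Havcr2 is filled in the 3 comparisons of TGFB with untreated cells, Pdcd1lg2 in both of the reporter cells, Cd160 in hCD2- and in knockout cells, and no gene between the fractions.

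By count, 2 of the 9 genes were called in hCD2+ against untreated cells, both lower and 0 higher. Of all 14860 genes, 11.6% were called there, 1.94% higher and 9.66% lower. In hCD2- against untreated cells 3 were called, 2 lower and 1 higher, against 18.9% of all genes, 16.9% lower and 2.05% higher. Both comparisons share the untreated arrays. In knockout cells 2 were called, 1 in each direction, against 2.75% of all genes, 0.895% higher and 1.85% lower.

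Between hCD2+ and hCD2- cells limma called 0 of 9, against 0.155% of all genes, 0.128% higher and 0.0269% lower in hCD2+ cells. At an unadjusted p under 0.05 there was 1 of 9, against 620 of 14860 genes. Quantile normalization called 1, Cd160, and of all genes 98 higher and 32 lower. In the differences between reporter and knockout responses limma called 0 of 9 for hCD2+ cells and 0% of all genes. An unadjusted p under 0.05 was reached there by 1 of 9 and by 375 of all genes. For hCD2- cells limma also called 0 of 9, and 0.00673% of all genes. At an unadjusted p under 0.05 there were 2 of 9 and 550 of all genes.

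Arrays of the compared groups did not overlap for 1 of the 9 genes, lower, in hCD2+ against untreated cells, where 7.34% of all genes did not overlap (6.46% lower, 0.875% higher). They did not overlap for 2, both lower, in hCD2- against untreated cells (10.1% of all genes, 9.04% lower and 1.1% higher). Between the fractions Pdcd1lg2 was separate and higher in hCD2+ cells and Cd160 separate and lower (0.666% of all genes, 0.518% higher and 0.148% lower). In knockout cells 4 genes were separate, Havcr2 and Pdcd1lg2 lower and Cd160 and Lag3 higher (16.4% of all genes, 11.1% lower and 5.26% higher).

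The median log2 fold change of the 9 genes was -0.53, -0.53, -0.05 and 0.18 in hCD2+ against untreated, hCD2- against untreated, hCD2+ against hCD2- and TGFB-treated against untreated knockout cells, beside -0.07, -0.09, 0.04 and -0.03 over all genes. After quantile normalization the medians over all genes were 0.07, 0.09, -0.01 and 0.03, so each reporter response moved up by more than 0.1 under that scaling. The falls of Havcr2 and Pdcd1lg2 and the rises of Cd160 kept their direction and their calls under it.

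Partners of these receptors were followed through a list of 14 ligands, counter-receptors and competitors, 11 of them measured. In hCD2+ cells 1 rose and 1 fell, in hCD2- cells 2 rose and 3 fell, and in knockout cells 2 rose. List medians were -0.12, -0.32 and 0.15 (log2). Of all genes, 1.94% rose and 9.66% fell in hCD2+, 2.05% and 16.9% in hCD2-, and 0.895% and 1.85% in knockout cells. Cd96, which competes with TIGIT and CD226 for their shared ligand, rose in all 3 (0.84, 1.15 and 1.36, limma adjusted p = 0.00944, 0.000546 and 0.00547). Tnfrsf14, the gene of HVEM, which BTLA and CD160 both bind, rose in hCD2- cells (0.78, adjusted p = 0.0204) and in knockout cells (1.41, adjusted p = 0.00971). In hCD2+ cells Tnfrsf14 differed by 0.63 (adjusted p = 0.0807). This hCD2+ difference passed the threshold after quantile normalization (0.92, limma adjusted p = 5.22e-05), after median centring (0.75, 0.00975) and without the narrow arrays (0.87, 0.00163). It missed the threshold without the study term (0.63, 0.272) and with a replicate block (0.63, 0.0607). Cd200r1, the receptor for CD200, fell in hCD2+ (-1.66, adjusted p = 0.000397) and hCD2- cells (-1.52, adjusted p = 0.000594) and missed the threshold in knockout cells (-1.29, adjusted p = 0.0501). The knockout fall passed it after quantile normalization (-1.30, limma adjusted p = 0.00378) and median centring (-1.22, 0.0205). It also passed with dim genes left out (-1.29, 0.0348) and with a replicate block (-1.29, 0.0484), but not without the study term (-1.29, 0.0752). Cd80, a ligand of CD28 and CTLA-4 that can also bind PD-L1, fell in hCD2- cells (-1.25, adjusted p = 0.00643) and differed by 0.18 in hCD2+ cells (adjusted p = 0.733), a difference between the fractions of 1.44 (adjusted p = 0.063). The difference of Cd80 between the fractions passed the threshold after quantile normalization (1.38, limma adjusted p = 0.00263), after median centring (1.39, 0.0137) and with dim genes left out (1.44, 0.0405). It missed the threshold without the study term (1.44, 0.497), with a replicate block (1.44, 0.155) and without the narrow arrays (1.32, 0.528). The fall of Cd80 in hCD2- cells missed the threshold without the narrow arrays (-0.94, adjusted p = 0.143).

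A further list held 10 genes of other receptors, inhibitory ones and the costimulatory Tnfrsf9. Of the 7 measured, 3 rose and 2 fell in hCD2+ cells, and 1 rose and 2 fell in hCD2- cells. In knockout cells 1 rose and 1 fell (medians 0.06, 0.02 and 0.31 in the 3 comparisons). Tnfrsf9 is among the falls in each comparison, and without it 1, 1 and 0 fell. Of all genes, 11.6%, 18.9% and 2.75% were called in these comparisons. Cd72, an inhibitory receptor best known from B cells, rose in all 3 comparisons (0.90, 1.03 and 2.01, limma adjusted p = 0.0151, 0.00425 and 0.000615), and Tnfrsf9, the gene of 4-1BB, fell in all 3 (-1.85, -2.48 and -1.97, adjusted p = 0.0039, 0.000212 and 0.0399). Cd5, a receptor that dampens antigen receptor signals, rose in hCD2+ cells (1.40, adjusted p = 0.00316). It missed the threshold in hCD2- cells (0.65, adjusted p = 0.119) and in knockout cells (0.87, adjusted p = 0.341). Quantile normalization brought Cd5 past it in both (1.07, adjusted p = 0.000188, and 0.98, adjusted p = 0.00816). Without the narrow arrays it passed in hCD2- cells (1.19, adjusted p = 0.00803). Between the fractions Cd5 differed by 0.75 (adjusted p = 0.897). After quantile normalization 5 of the 7 were called in hCD2- cells, where 1352 of all 14860 genes rose and 1857 fell. In knockout cells 4 of the 7 were called, where 746 of all genes rose and 714 fell.

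Of 12 signalling genes below these receptors, 10 were measured, and 0 rose on the deposited values. In hCD2+ cells 1 fell, in hCD2- cells 2 and in knockout cells 1 (medians -0.29, -0.40 and 0.02). Among all genes 9.66%, 16.9% and 1.85% fell in these comparisons. Dok2, an adaptor that limits Ras signalling, fell in all 3 (-0.99, -1.61 and -1.47, limma adjusted p = 0.0116, 0.00017 and 0.0134). The phosphatase genes Ptpn6 (SHP-1) and Ptpn11 (SHP-2), through which BTLA and PD-1 act, differed by -0.33 (adjusted p = 0.346) and -0.22 (0.575) in hCD2+, by -0.39 (0.211) and -0.39 (0.237) in hCD2-, and by 0.36 (0.794) and -0.04 (0.996) in knockout cells. After quantile normalization 1 gene of this list rose in hCD2+, 1 in hCD2- and 2 in knockout cells, among them Ptpn6 in knockout cells (0.48, adjusted p = 0.00862). Under that scaling 1090, 1352 and 746 of all 14860 genes rose. With a replicate block, or with dim genes left out, 4 genes of the list fell in hCD2- cells.

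Of 15 transcription factor genes known to act on inhibitory receptor genes, 12 were measured. In both hCD2+ and hCD2- cells 4 rose and 5 fell, and in knockout cells 3 rose and 3 fell (medians -0.32, -0.38 and 0.04). Over all genes 1.94% rose and 9.66% fell in hCD2+, 2.05% and 16.9% in hCD2-, and 0.895% and 1.85% in knockout cells. Tox, a factor of T cells under lasting stimulation, rose in all 3 comparisons (1.55, 1.58 and 2.09, limma adjusted p = 8.67e-05, 4.06e-05 and 0.000159), as did Bcl6, the factor of follicular helper T cells (1.13, 1.58 and 1.86, adjusted p = 0.00613, 0.000277 and 0.00274). Prdm1, the gene of Blimp-1, and Batf, an AP-1 factor, fell in all 3, Prdm1 with log2 fold changes of -1.75, -1.79 and -1.78 (adjusted p = 1.04e-05, 5.21e-06 and 0.000362) and Batf with -2.09, -2.63 and -1.99 (adjusted p = 2.37e-05, 1.28e-06 and 0.00151). Between the fractions limma called 0 of the 40 measured genes of these 4 lists, against 0.155% of all genes. At an unadjusted p under 0.05 there were 4 of the 40, against 620 of all 14860 genes. Quantile normalization called 2 of the 11 partners there, and of all genes 98 higher and 32 lower in hCD2+ cells. The list counts were smaller in single studies: of the 12 factors, study 1 alone called 4 in hCD2+ and 3 in hCD2- cells, and study 2 alone 3 and 5. Without the narrow arrays 3 rather than 5 partners were called in hCD2- cells, and without the study term 2 rather than 5 genes of the receptor list in hCD2+ cells and 0 signalling genes in hCD2+ and knockout cells. Of the genes named here, Cd72, Cd5, Dok2 and Bcl6 lost their call in hCD2+ cells without the study term (adjusted p = 0.201, 0.101, 0.0621 and 0.134), Tnfrsf14 and Cd72 in hCD2- cells (0.116 and 0.0955), and Tnfrsf14, Cd72, Dok2 and Bcl6 in knockout cells (0.109, 0.0547, 0.0858 and 0.131).

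**Figure D4:**
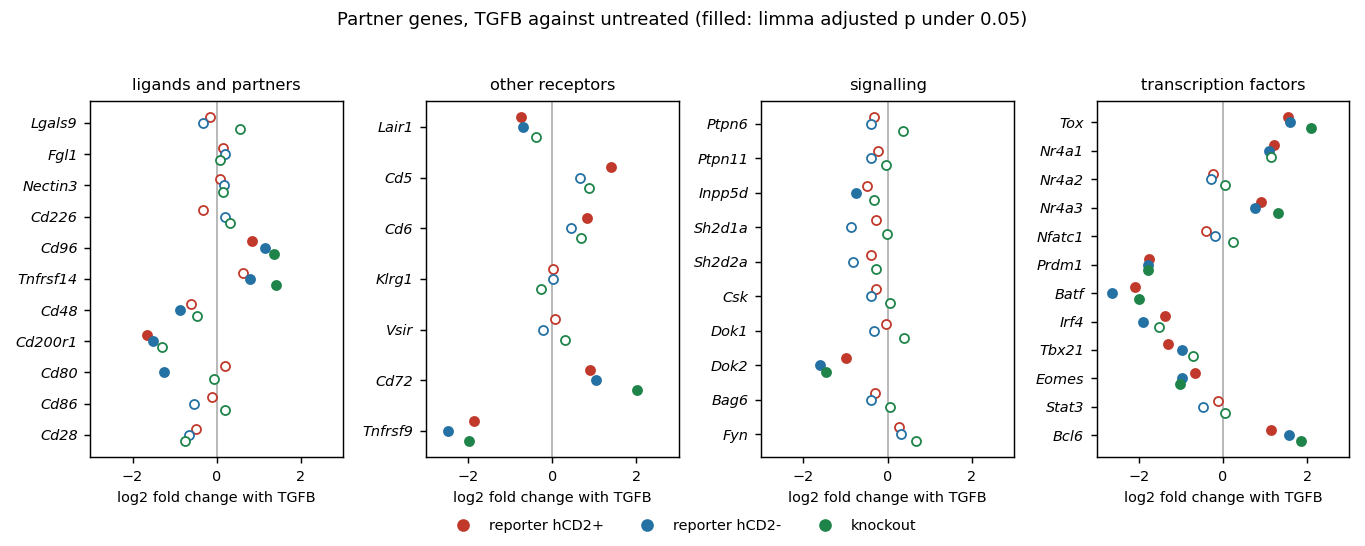
Log2 fold change with TGFB (horizontal axis) of the measured genes of 4 lists, in reporter hCD2+ cells, reporter hCD2- cells and knockout cells; each point is the fitted value and filled points passed the limma test. Cd96, Cd72, Tox and Bcl6 are filled to the right and Tnfrsf9, Dok2, Prdm1 and Batf to the left in all 3 comparisons.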

How the data were processed

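Gene expression was measured on 21 mouse exon arrays. Per the submitters' processing notes, the authors made the deposited log2 values with RMA in Affymetrix Expression Console 1.2 on build mm8, 1 value per transcript cluster. Of 23332 clusters, 14996 carried 1 gene symbol, 1019 several and 7317 none. The highest-mean cluster per symbol was kept, which left 14860 genes (135 had more than 1 cluster), and 14941 clusters matched the gene table with 0 symbols changed. No coordinates of the array were used, and 0 columns belonged to other samples.

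All 21 arrays entered 1 fit with limma 3.58.1 in R 4.3.3, with a mean per group and a term for the study number of the labels (study 1 holds replicates 1 to 3 of each reporter group, and study 2 the rest with every knockout array). Tests were 2-sided, with Benjamini-Hochberg adjustment over 14860 genes and a call at 0.05. Levels were not tested between genotypes. In simulated data with 200 changed genes among 14860, the fit recovered 81% of 2-fold changes in hCD2+ against untreated cells and 54% in knockout cells. In each of these comparisons it also called 10 unchanged genes. The simulated noise was independent between arrays, with no study difference, narrow arrays or correlated fractions, so these shares may not hold for the real arrays.

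The genes described and the lists were chosen with earlier results of these data known. Named genes are the 9 genes, at most 4 per partner list, the 3 genes most correlated with each called gene over the 15 reporter arrays (predicted genes left out), and cell type markers. Alternatives were no study term, a replicate block, quantile normalization, median centring, a filter on the dimmest genes (a share of 0.333), each study alone, a fit without the 4 narrow reporter arrays (interquartile range under 2.5), and fits without each array in turn. RNA of other cell types and sorting purity were not measured separately.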

Additional observations from a re-analysis of the deposited data

Results flagged for a closer look

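In 27 groups of 5 reporter arrays (9 genes in 3 groups), 3 held an array far from its nearest neighbour relative to the range of the group by Dixon's ratio, where chance flags about 1 in 20. Cd160 in untreated replicate 4 was 6.58, against 5.67 for the next array. Without that array the hCD2- rise was 1.06 (log2, limma adjusted p = 0.00781). Cd274 in hCD2+ replicate 3, a narrow array, was 7.87, against 9.25 for the next. Pdcd1lg2 in hCD2- replicate 1, also a narrow array, was 5.67, against 5.89, a small gap in a tight group, and without it the fall in hCD2- cells was -2.10 (limma adjusted p = 0.000234). Their causes were not tested.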

How the results depend on the processing

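The falls of Havcr2 and Pdcd1lg2 in both sorted fractions and the changes of Havcr2 and Cd160 in knockout cells kept their direction under each alternative run, and their calls in all 21 fits without 1 array. Precision was limited by 5 or 3 arrays a group, and by signal near background for Havcr2. Across the settings other than leaving out 1 array, the log2 fold changes of single genes kept sign and side of the threshold in 296 comparisons with the reported value, lost the call in 8, gained it in 9 and changed sign in 16, none of which was called. Causes were not tested.

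With the numbers of genes called, study 1 alone gave 279 and 532 in hCD2+ and hCD2- against untreated cells and 0 between the fractions, and study 2 alone 208, 441 and 0, with fewer arrays. Study 2 alone called 0 of the 9 genes in hCD2+ and 0 in hCD2- cells, 1 in knockout cells, and 0 genes in the difference of the hCD2- and knockout responses. Leaving out the narrow arrays gave 1010 in hCD2- against untreated cells, 9 between the fractions, 712 in knockout cells, and 1 and 0 in the hCD2+ and hCD2- differences from the knockout response. Without the study term 11 genes were called between the fractions and 254 in knockout cells. Quantile normalization called 130 and 1460 there and 10 in the hCD2+ difference, and of the 9 genes 1 between the fractions, 5 in knockout cells and 1 in the hCD2+ difference. Median centring called 56, 656, 3 and, in the hCD2- difference, 4. The filter on dim genes dropped Havcr2 and so called 1 of the 9 genes in hCD2+ and 1 in knockout cells. The share of lower calls was 83.2%, 89.2%, 17.4% and 67.4% in the 4 comparisons, 57.0%, 57.9%, 24.6% and 48.9% after quantile normalization and 71.5%, 68.0%, 21.4% and 56.1% after median centring.

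Signs changed for hCD2+ against untreated cells in Lag3 (-0.027, study 1), Cd160 (-0.20, study 2) and Cd244a (0.023 quantile, 0.068 median centring, 0.01 study 1). They changed for hCD2- against untreated cells in Pdcd1 (-0.19, study 1) and Btla (0.070, narrow arrays out). Between the fractions they changed in Btla (-0.13 quantile, -0.044 median centring, -0.34 study 2, -0.36 narrow arrays out), Cd274 (0.17, study 2) and Cd200 (-0.21 study 2, -0.12 narrow arrays out). In knockout cells Cd274 turned to 0.017 (quantile), and the hCD2+ minus knockout difference of Pdcd1lg2 to 0.0067 (study 2).

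Without each array in turn, 1218 to 2065 genes were called in hCD2+ and 1817 to 3999 in hCD2- against untreated cells, 15 to 88 between the fractions, 221 to 623 in knockout cells, and 0 to 1 and 0 to 55 in the differences of responses. Of the 9 genes 2 to 2, 2 to 4, 0 to 0 and 2 to 3 were called in the first 4. The counts moved by over 1.5 times without hCD2- replicate 3 (1857) or 4 (1817), without hCD2+ replicate 1 (15) or 3 (88) between the fractions, and in knockout cells without hCD2+ replicate 3 (623), untreated knockout replicate 3 (266) or TGFB-treated knockout replicates 1 to 3 (238, 221 and 233). Ranges that crossed 0 were, for hCD2+ against untreated cells, -0.053 to 0.31 in Lag3, -0.093 to 0.18 in Cd160 and -0.13 to 0.041 in Cd244a, and -0.082 to 0.14 in Pdcd1 for hCD2- cells. Between the fractions they were -0.10 to 0.011 in Havcr2, -0.20 to 0.22 in Btla, -0.21 to 0.27 in Cd274 and -0.013 to 0.25 in Cd200. For Havcr2, near background on the TGFB-treated arrays of both genotypes, the fitted differences from the knockout response ranged from -0.19 to 0.91 (hCD2+) and -0.14 to 0.97 (hCD2-).

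Samples were treated as unpaired, since not every pair of same-numbered arrays had deviations correlated above 0.1 (0.0977 for replicate 1 of the sorted fractions, -0.182 for knockout replicate 2). The hCD2+ and hCD2- arrays of replicates 2 to 5 did correlate, at 0.656, 0.785, 0.736 and 0.80, and sorted with untreated arrays at 0.117 to 0.512. These deviations from the group mean hold the difference between the studies. With the study mean also removed, sorted and untreated arrays correlated at -0.263 to 0.0455. The fractions then correlated at 0.681, 0.729, 0.603 and 0.603 in replicates 2 to 5 and at -0.30 in replicate 1. In all 1 of 15 reporter and 3 of 6 knockout arrays were closest to their own number in every other group. A replicate block called 1982, 3388, 26 and 516 genes in the 4 comparisons and the same 2, 3, 0 and 2 counts of the 9 genes, and it changed no call among them.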
